A study of Mus musculus with 24 samples.

Results

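The 12 control libraries of this mouse study hold the messenger RNA of sorted bone marrow progenitors from pups of chow-fed dams, and they are 12 of the 24 libraries in the series. They were chosen by the word control in their labels, with no measured value involved. The dams were C57BL/6J mice, 4 to 5 weeks old when assigned to a diet, and they ate regular chow (2018SX) for 4 weeks before mating, through pregnancy and through lactation. The pups were taken at postnatal day 21, around weaning, and the labels name no transgene or treatment of the pups. Marrow was crushed out of femurs, tibiae and hips, depleted of lineage-positive cells with EasySep beads, and the lineage-negative Sca-1+ Kit+ (LSK) cells were sorted by flow cytometry directly into lysis buffer. RNA with an integrity number above 8.0 was amplified with the NEBNext kit for single cells and low input, from poly(A) and without marking the strand. The labels give 3 batches, numbered 1 to 3 with no word on what a batch was, and each batch holds 2 female and 2 male control libraries. The other 12 libraries come from pups of dams on a Western diet and serve here only to see whether the same batch numbers differ there too. Neither dams nor litters are named, so every p-value below measures the spread between these libraries, some of which may share a litter.

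LSK cells are the small marrow fraction that holds the blood stem cells and the multipotent progenitors just below them. Stem cells are largely quiescent, whereas multipotent progenitors divide and already express low levels of the programs of single lineages, a state called lineage priming: Flt3 and Dntt mark the lymphoid side, Mpo and Elane the granulocyte-monocyte side, and Klf1 and Gata1 the megakaryocyte-erythroid side. Kit encodes the receptor of stem cell factor and Ly6a encodes Sca-1, the surface proteins on which the gate rests.

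Levels are given as CPM (counts per 1000000 counts in genes), scaled between libraries with edgeR's trimmed mean of M-values, as mean ± SD over the 12 libraries unless a batch is named. Where genes are compared with each other, the level is CPM per kilobase of exon (CPM per kb), since a longer transcript gives more reads. The libraries held 38057263 to 51581968 counts assigned to genes, with a median of 43982787, and 25673 to 27858 genes with at least 1 count. A mean of at least 1 CPM was reached by 14074 genes, at least 100 CPM by 2573 genes and at least 1000 CPM by 75 genes. On the first principal component of log2 CPM, which held 31.7% of the variance, the 2 female libraries of batch 3 (females 5 and 6) lay at -87.7 and -63.2, apart from the other 10 libraries. Results between batches are therefore also given without that pair. Male library 1 of batch 1 stood apart on the second component.

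Of the markers that define the gate, Kit was high and Ly6a was far lower. Kit stood at 501, 389, 518 and 454 CPM in batch 1, 583, 604, 542 and 678 CPM in batch 2, and 562, 491, 464 and 621 CPM in batch 3, with the 2 female libraries before the 2 male libraries in each batch, here and below. The batches overlapped at this high level, and Kit did not pass the test across the 3 batches (adjusted p = 0.116, edgeR). Ly6a stood at 7.32, 16.5, 39.6 and 14.6 CPM in batch 1, 10.2, 9.80, 17.9 and 9.29 CPM in batch 2, and 2.13, 4.42, 11.7 and 8.10 CPM in batch 3. On the per-length scale Ly6a averaged 10.5 ± 8.02 CPM per kb against 59.9 ± 9.06 CPM per kb for Kit. On that scale Ly6a ranked 4987 among the 19009 genes tested that have an exon length. The median gene tested had 8.27 CPM, so Ly6a was low beside Kit rather than among all genes. No other gene's exons overlap those of Ly6a in the annotation used, but the gene belongs to a family of close copies, and reads that match several places equally well are not counted. The Kit messenger thus goes with the label LSK, whereas the Ly6a messenger, low beside Kit, does not by itself bear the label out. Surface protein was not measured in these files, so the libraries are called the control libraries below.

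The other markers of multipotent progenitors were plainly present. Cd34, a surface sialomucin of progenitors, averaged 531 ± 173 CPM, and Flt3, the receptor that marks lymphoid-primed multipotent progenitors, averaged 325 ± 93.7 CPM. Mpo, the myeloperoxidase of granule-forming progenitors, averaged 2790.2 ± 1097 CPM and was among the 10 most abundant genes of all. Genes used to mark the long-term stem cell were low: Procr, which encodes the endothelial protein C receptor, ranged over 3.34 to 9.98 CPM, Slamf1, which encodes CD150, over 2.90 to 7.08 CPM, and Mecom, a transcription factor needed for stem cell maintenance, over 8.31 to 34.4 CPM. Per kilobase these markers spanned from 815 ± 320.5 CPM per kb for Mpo to 1.60 ± 0.632 CPM per kb for Mecom.

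**Figure D1:**
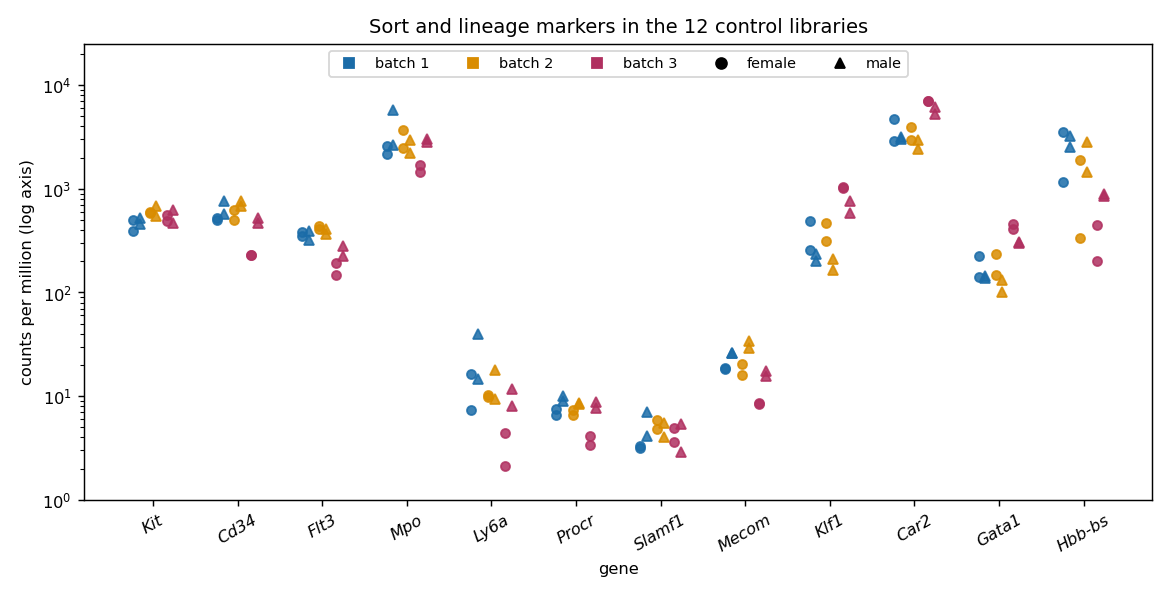
Levels of 12 sort, stem cell and lineage markers in each of the 12 control libraries, in CPM on a log axis, colored by batch, with circles for female and triangles for male libraries. Kit, Cd34, Flt3 and Mpo lie at 147 to 5704 CPM in every library, whereas Ly6a ranges over 2.13 to 39.6 CPM and is lowest in the 2 female libraries of batch 3.

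The lineage antigens of mature cells were checked in the same libraries. Ly6g, the neutrophil antigen, had 0 counts in all 12 libraries, which allows at most 3 counts or 0.0537 to 0.0829 CPM. That bound covers counted reads only, since reads that match several places equally well are not counted. It was the only 1 of 16 neutrophil markers at 0 throughout, and 13 were detected in all 12 libraries. The neutrophil markers summed to 43.5 to 237 CPM. Cd3e, a subunit of the T cell receptor complex, ranged over 0.0813 to 1.24 CPM, and Cd5, a T cell antigen of the depletion, over 0.322 to 2.01 CPM. Adgre1, which encodes the macrophage antigen F4/80, ranged over 11.05 to 73.6 CPM. Globin messengers were abundant and uneven: Hbb-bs, an adult beta globin, stood at 1159, 3553, 3248 and 2554 CPM in batch 1, 332, 1878, 2846 and 1445 CPM in batch 2, and 201, 444, 844 and 898 CPM in batch 3. In every batch a female library held the least, and the batches overlapped. Col1a1, the collagen of bone-forming and stromal cells, was also present, at 79.3 CPM at the lowest, 368 CPM at the median and 945 CPM at the highest.

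Across all genes the most abundant messengers were those of structure, translation and protein folding. Actb, the cytoskeletal actin, led with 5887 ± 678 CPM, and the carbonic anhydrase gene Car2, an early erythroid gene, came next with 4305 ± 1712 CPM. Eif5a, a translation factor, followed with 4049 ± 531 CPM, and H3f3b, a gene of the replication-independent histone H3.3, with 3962 ± 677 CPM. Per kilobase the order was led by the mitochondrial cytochrome b gene mt-Cytb at 3275 ± 918 CPM per kb, then Actb at 2197 ± 253 CPM per kb, Hbb-bs at 2105 ± 1533 CPM per kb, Car2 at 1778 ± 707 CPM per kb and the ribosomal protein gene Rpl32 at 1720.2 ± 372 CPM per kb. The SDs of neighbours in that order overlap, and that of Hbb-bs, at 72.8% of its mean, spans all of them.

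Among the genes of the stem cell list, Ifitm3, an interferon-induced membrane protein, had the highest level per length at 239.9 ± 128 CPM per kb. It was followed by Adgrg1, an adhesion receptor of stem cells, at 168 ± 36.9 CPM per kb, by Cd48, a surface protein of more committed progenitors, at 119 ± 42.1 CPM per kb, and by Ifitm1 at 77.7 ± 31.2 CPM per kb. Cd34 at 72.9 ± 23.7 CPM per kb and Kit at 59.9 ± 9.06 CPM per kb lay just below. The SD of Cd34 overlaps those of Cd48 and Ifitm1, and the SD of Kit overlaps that of Ifitm1 but not that of Cd48. The 31 genes of the list summed to 0.312% of all counts.

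The leading lineage-priming genes reached higher levels per length than the leading stem cell genes. Car2 led this class at 1778 ± 707 CPM per kb, and Mpo at 815 ± 320.5 CPM per kb and Elane, neutrophil elastase, at 810.3 ± 223 CPM per kb stood side by side. Car1, another carbonic anhydrase, at 516 ± 210.2 CPM per kb, Plac8 at 397 ± 195 CPM per kb and Klf1, the erythroid Krüppel-like factor, at 314 ± 206 CPM per kb came next, with wide and overlapping spreads. On the lymphoid side Ighm, the immunoglobulin mu chain, led with 296 ± 91.4 CPM per kb, ahead of Dntt, the terminal transferase of lymphoid progenitors, with 119.6 ± 39.6 CPM per kb. As shares of all counts the megakaryocyte-erythroid list held 0.954%, the granulocyte-monocyte list 0.631% and the lymphoid list 0.300%, beside 0.312% for the stem cell list. Car2 and Mpo were among the most abundant genes of all, and which cells carried these messengers was not tested.

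Regulators were led by immediate early genes, which are transcribed within minutes of a stimulus without new protein synthesis. Junb, a subunit of the AP-1 factor, reached 734 ± 354 CPM per kb, Ier2 528 ± 351 CPM per kb, Fos 419 ± 155 CPM per kb and Zfp36, which encodes an RNA-binding protein that shortens the life of AU-rich messengers, 321 ± 172 CPM per kb. These 4 had coefficients of variation of 48.2%, 66.4%, 36.9% and 53.7%. Stem cell transcription factors lay far lower, with Lyl1 at 85.1 ± 15.6 CPM per kb, Lmo2, its partner, at 63.7 ± 25.4 CPM per kb, Fli1 at 42.2 ± 10.6 CPM per kb and Sox4 at 39.6 ± 11.8 CPM per kb. The homeobox factors Hoxa9 at 13.97 ± 3.05 CPM per kb and Meis1 at 13.3 ± 3.95 CPM per kb were lower still. Of the chromatin regulators, the deacetylase gene Hdac1 stood at 84.7 ± 6.85 CPM per kb, Uhrf1, which guides maintenance methylation, at 84.2 ± 6.24 CPM per kb, and the maintenance methyltransferase gene Dnmt1 at 51.998 ± 6.14 CPM per kb, with coefficients of variation of 8.08%, 7.41% and 11.8%. Other members of that list varied more, among them Tet1, a methylcytosine dioxygenase, at 27.03%, the de novo methyltransferase gene Dnmt3b at 26.3% and Satb1 at 28.4%.

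In metabolism, the mitochondrial messengers and the antioxidant gene Gpx1 led. The cytochrome oxidase gene mt-Co1 stood at 1211 ± 171 CPM per kb and Gpx1, glutathione peroxidase, at 1181 ± 195 CPM per kb. Glycolytic genes followed, with Ldha, lactate dehydrogenase, at 271 ± 45.4 CPM per kb, Aldoa, aldolase, at 222 ± 19.6 CPM per kb, Eno1, enolase, at 179 ± 17.7 CPM per kb and Pkm, pyruvate kinase, at 149 ± 50.9 CPM per kb. The heme pathway was expressed at the same scale, with Tmem14c, a mitochondrial porphyrin carrier, at 272 ± 80.4 CPM per kb and Alad, which catalyses the second step of heme synthesis, at 246 ± 104 CPM per kb. The 77 cytosolic ribosomal protein genes summed to 5.12% of counts, the nuclear oxidative phosphorylation list to 1.32% and the mitochondrial messengers to 0.779%.

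**Figure D2:**
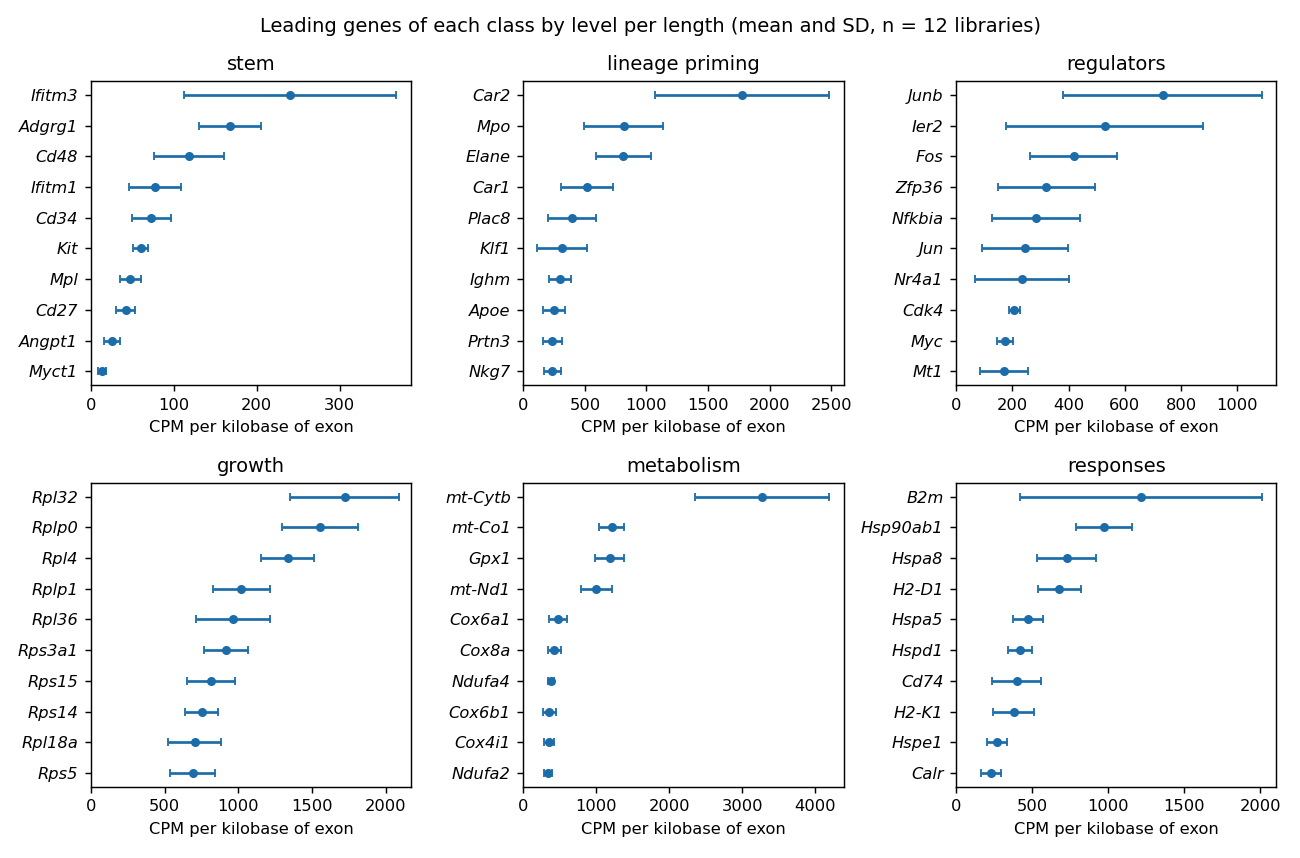
The 10 genes with the highest level per length in each of 6 classes, as mean CPM per kilobase of exon over the 12 control libraries on linear axes that differ between classes, with bars for the SD. Lineage-priming genes such as Car2 and Mpo stand above the stem cell genes, and the immediate early genes Junb and Ier2 lead the regulators.

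The steadiest genes were housekeeping genes of moderate level. Among genes with a mean of at least 100 CPM the lowest coefficient of variation belonged to Adss, an enzyme of AMP synthesis, at 3.88%, with 169 CPM at the lowest, 174 CPM at the median and 191 CPM at the highest. Tmco1, an endoplasmic reticulum calcium channel, followed at 4.25%, Lims1 at 4.30% and Aamp at 4.32%, and the tenth, Pnn, stood at 4.96%. The median over the 19130 genes tested was 27.01%. In the median gene, batch accounted for 30.3% of the variance of log2 CPM, sex for 7.65% and neither for 55.9%. Any grouping of so few libraries takes up part of the variance, and the share expected without an effect was not computed.

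Batch differences reached 3145 of the 19130 genes tested, 16.4% of them, when p was adjusted over all of them and called below 0.05, with batch and sex as terms in edgeR. At an unadjusted p under 0.05 the count was 6116. A gene that passed is said below to be higher or lower in the batch whose mean log2 CPM lay farthest from the mean of the other 2 batches, and folds are taken from that difference. Batch 3 stood apart for 2310 of them (12.1% of genes tested), with 1159 genes higher (6.06% of genes tested) and 1151 lower (6.02%). Batch 1 stood apart for 699 (3.65%), 534 higher (2.79%) and 165 lower (0.863%), and batch 2 for 136 (0.711%), 89 higher (0.465%) and 47 lower (0.246%). Between pairs of batches, 3397 genes differed between 3 and 1 (17.8%), 2330 between 3 and 2 (12.2%) and 171 between 2 and 1 (0.894%). A batch whose 4 libraries did not overlap the other 8 was found for 10.5% of all genes tested.

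Most calls were lost in every batch without the 2 female libraries of batch 3. Leaving them out also makes the test weaker, since batch 3 then holds only its males. No other 2 libraries were left out together for comparison, so the part of fewer libraries in these losses was not tested. Without them 255 genes differed between batches (1.26% of 20197 tested), of which 250 had passed with them. Batch 3 then had 88 genes higher and 27 lower, batch 1 had 118 and 15, and batch 2 had 3 and 4. The male libraries alone gave 10 genes (0.0514%). The genes that passed in all 22 settings run on the control libraries were 6: Atf3, Bhlhe40, Skil, Il1r2 and Rgs1, higher in batch 1, and Klf1, higher in batch 3. Rgs1 was named only after its values were seen. The share of reads assigned to no gene was 31.8 to 36.8% in batch 1, 33.1 to 36.1% in batch 2 and 31.04 to 32.4% in batch 3. Genes detected numbered 26132 to 27041, 26911 to 27858 and 25673 to 26552, fewer in each library of batch 3 than in any of batch 2. The part of these measures in the batch differences was not tested. Below, the value without the pair is the adjusted p of the same edgeR test with females 5 and 6 left out.

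**Figure D3:**
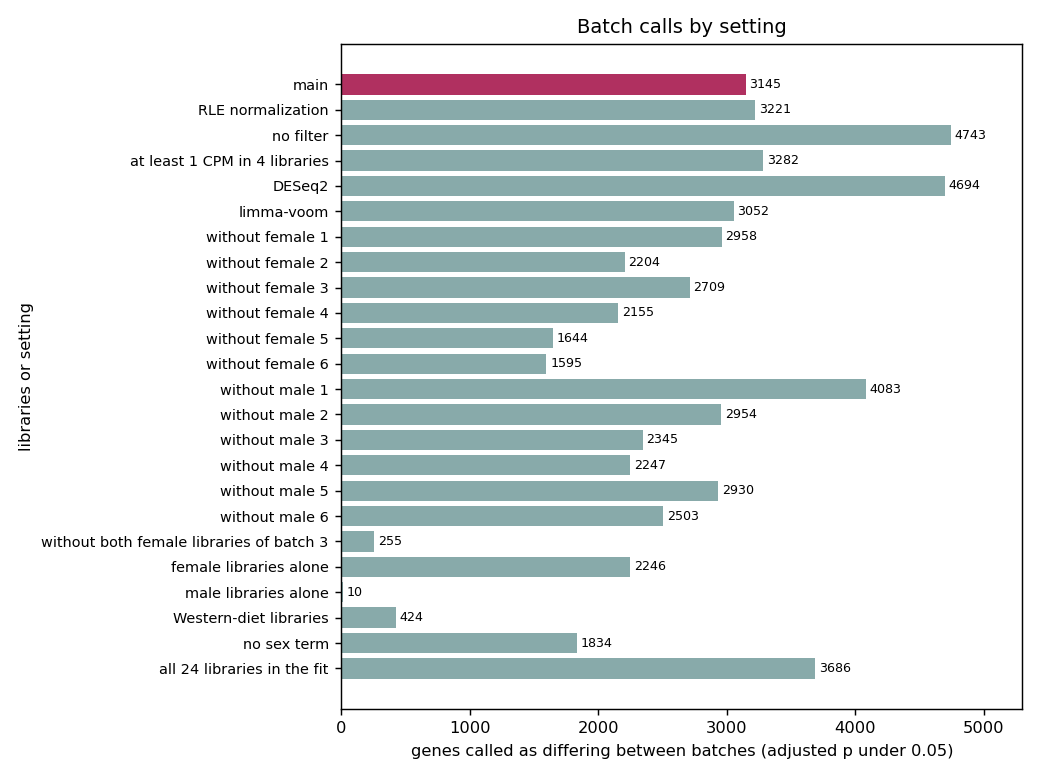
Number of genes with a batch difference at an adjusted p under 0.05 under each setting of the analysis. Most settings give 1595 to 4743 genes, against 255 without both female libraries of batch 3, 10 with male libraries alone and 424 in the Western-diet libraries.

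Immediate early genes were higher in batch 1. Of 23 immediate early genes tested, 12 were higher in batch 1 and 4 were lower in batch 3, against 2.79% and 6.02% of all genes. Without the pair, 7 of the 23 passed, all of them among these 16, against 1.26% of all genes tested. The median member lay 0.92 log2 units higher in batch 1 than in the other batches, against 0.01 for all genes tested. The summed level of the list was 9284 to 15018 CPM in batch 1, 5833 to 7727 CPM in batch 2 and 4623 to 8674 CPM in batch 3, so batch 1 did not overlap the others. In bulk libraries, more cells of a kind and more messenger per cell cannot be told apart.

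Atf3, a transcriptional repressor induced by many stresses, had the smallest p of all genes. It stood at 74.9, 79.9, 115 and 93.1 CPM in batch 1, 12.6, 12.7, 17.6 and 18.1 CPM in batch 2, and 10.3, 15.3, 16.01 and 20.7 CPM in batch 3. All 4 libraries of batch 1 lay several-fold above every other library, and batches 2 and 3 overlapped. The difference was 5.93-fold (adjusted p = 2.47e-07, edgeR), with -2.58 ± 0.14 log2 (SE) from batch 1 to batch 2 and -2.55 ± 0.14 from batch 1 to batch 3. Bhlhe40, a repressor tied to the circadian clock and to hypoxia, stood at 78.2, 69.8, 113 and 97.5 CPM in batch 1, 20.5, 18.8, 30.9 and 34.97 CPM in batch 2, and 11, 9.12, 17.1 and 21.8 CPM in batch 3. Batch 1 was again wholly above the rest, by 4.68-fold (adjusted p = 3.65e-07), and within each batch both male libraries exceeded both female libraries. Skil, which encodes SnoN, an inhibitor of SMAD signaling, stood at 156, 141, 234 and 264 CPM in batch 1, 40.9, 40.3, 59.2 and 74.4 CPM in batch 2, and 31.7, 33.8, 47.04 and 69.6 CPM in batch 3. It showed the same order, 4.05-fold higher in batch 1 (adjusted p = 6.06e-07), and the males were above the females of their batch.

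Among the factors of the same response, Nr4a1, an orphan nuclear receptor induced within minutes, stood at 1609, 1239.6, 1541 and 1852 CPM in batch 1, 408, 360.1, 529.7 and 696 CPM in batch 2, and 236, 245, 387 and 766 CPM in batch 3. The lowest library of batch 1 exceeded the highest of the others, and the difference was 3.70-fold (adjusted p = 0.000471, 0.00571 without the pair). Klf4, a Krüppel-like factor of myeloid cells, was 2.61-fold higher in batch 1, at 19.7 ± 6.54 CPM (n = 4) against 7.81 ± 1.21 and 6.76 ± 1.15 CPM in batches 2 and 3. Zfp36 stood at 2032, 1546, 2147 and 1612 CPM in batch 1, 863, 980.0, 1041 and 1017 CPM in batch 2, and 262, 471, 686 and 707 CPM in batch 3. Here batch 3 was the one apart, 2.69-fold lower (adjusted p = 0.000711, 0.00252 without the pair), and the 3 batches formed a descending order with no overlap. Ier3 had the same order of means, with 177 ± 21.2, 94.2 ± 9.36 and 47.1 ± 22.6 CPM. Junb, Ier2 and the glucocorticoid target Dusp1 did not pass, with adjusted p of 0.487, 0.944 and 0.946 (edgeR). A batch difference was thus not shown for these genes, and a missed call does not show that they stayed level.

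NF-κB is held in the cytoplasm by inhibitor proteins, and its own target Nfkbia encodes the chief one. Nfkbia stood at 922, 786, 772 and 669.7 CPM in batch 1, 275, 263, 299 and 254 CPM in batch 2, and 240.2, 325, 345 and 326 CPM in batch 3. Batch 1 lay wholly above the other batches, 2.71-fold (adjusted p = 4.40e-05, 0.000206 without the pair). Cxcl10, a chemokine induced by interferon and NF-κB, stood at 10.8, 10.8, 17.4 and 6.54 CPM in batch 1, 1.53, 1.26, 4.71 and 2.26 CPM in batch 2, and 0.867, 1.20, 1.87 and 2.44 CPM in batch 3. It was low everywhere, and 5.9997-fold higher in batch 1 (adjusted p = 0.000471). Il1r2, the decoy receptor of interleukin 1, had 12.7 ± 2.78 CPM in batch 1 against 3.33 ± 0.330 and 2.09 ± 1.05 CPM. Hes1, the effector of Notch signaling, had 17.6 ± 8.23 CPM against 6.03 ± 0.837 and 2.54 ± 0.540 CPM, with adjusted p = 0.0147 without the pair (edgeR).

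The promoters of Nfkbia and Cxcl10 are shown because both genes are NF-κB targets that stood apart in batch 1. They are the 250 bases before the transcription start from RefSeq, on build GRCm38.p6 and on the minus strand of chr12:55492648-55492897 and chr5:92348890-92349139, 5′ to 3′ along the gene. Capitals mark matches to the κB consensus and, in Cxcl10, to the consensus of the interferon-stimulated response element, both searched on both strands.
Nfkbia: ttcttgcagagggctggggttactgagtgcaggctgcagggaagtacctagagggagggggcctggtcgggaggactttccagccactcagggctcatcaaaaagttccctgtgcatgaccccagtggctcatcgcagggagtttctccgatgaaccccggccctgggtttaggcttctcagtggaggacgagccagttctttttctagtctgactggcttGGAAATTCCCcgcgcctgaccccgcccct
Cxcl10: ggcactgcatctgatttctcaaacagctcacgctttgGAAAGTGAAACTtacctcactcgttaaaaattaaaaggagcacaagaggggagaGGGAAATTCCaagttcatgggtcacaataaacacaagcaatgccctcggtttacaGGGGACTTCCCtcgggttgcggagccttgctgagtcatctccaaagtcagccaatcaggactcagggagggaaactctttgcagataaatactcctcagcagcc
The κB match of Nfkbia lies 29 to 20 bases before the start, on the opposite strand. In Cxcl10 κB matches begin 159 and 104 bases before the start, the latter overlapping another that begins at 103, and the response element spans 213 to 202 bases before it. RefSeq promoters were at hand for 11740 of the 19130 genes tested, and 10.4% of them held a κB match, beside 11.8% of the 357 promoters among the genes higher in batch 1. The κB share was 17.5% of 57 promoters for genes higher in batch 2 and 13.7% of 804 for genes lower in batch 3. It was 8.16%, 9.68% and 9.42% for genes lower in batch 1, lower in batch 2 and higher in batch 3. For the response element the share was 1.65% of all promoters at hand and 4.20% of those among genes higher in batch 1. A match is a description of these letters and no measure of binding.

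Other genes of stress and growth arrest stood higher in batch 1. Cdkn1a, the p53 target that encodes the cell cycle inhibitor p21, had 236 ± 38.4 CPM against 112 ± 16.9 and 75.3 ± 36.1 CPM (adjusted p = 0.000623, edgeR, 0.00341 without the pair). Pmaip1, which encodes the pro-apoptotic protein NOXA, had 65.1 ± 11.2 CPM against 22.7 ± 2.52 and 20.8 ± 4.55 CPM, and Plk2 279 ± 30.8 CPM against 149 ± 22.6 and 103 ± 50.2 CPM. Of the 17 p53 targets tested these 3 were higher in batch 1, against 2.79% of all genes. In batch 3, 3 others were higher, against 6.06% of all genes, Bax and Gtse1 among them. Trp53 itself did not pass (adjusted p = 0.281). Ddit3, which encodes the stress factor CHOP, was 1.88-fold higher in batch 1. Of the 17 clock genes tested, 5 were higher in batch 1, against 2.79% of all genes. Of the 6 that passed, 2 did so without the pair: besides Bhlhe40, its paralog Bhlhe41 had 3.68 ± 0.662 CPM against 1.30 ± 0.382 and 1.43 ± 0.374 CPM. Per1, a core clock gene that is also a glucocorticoid target, did not pass (adjusted p = 0.155). Among the 16 glucocorticoid targets 5 passed (31.25%, against 16.4% of all genes). Of these 5, 3 were higher in batch 1, Nfkbia and the kinase gene Sgk1 included.

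**Figure D4:**
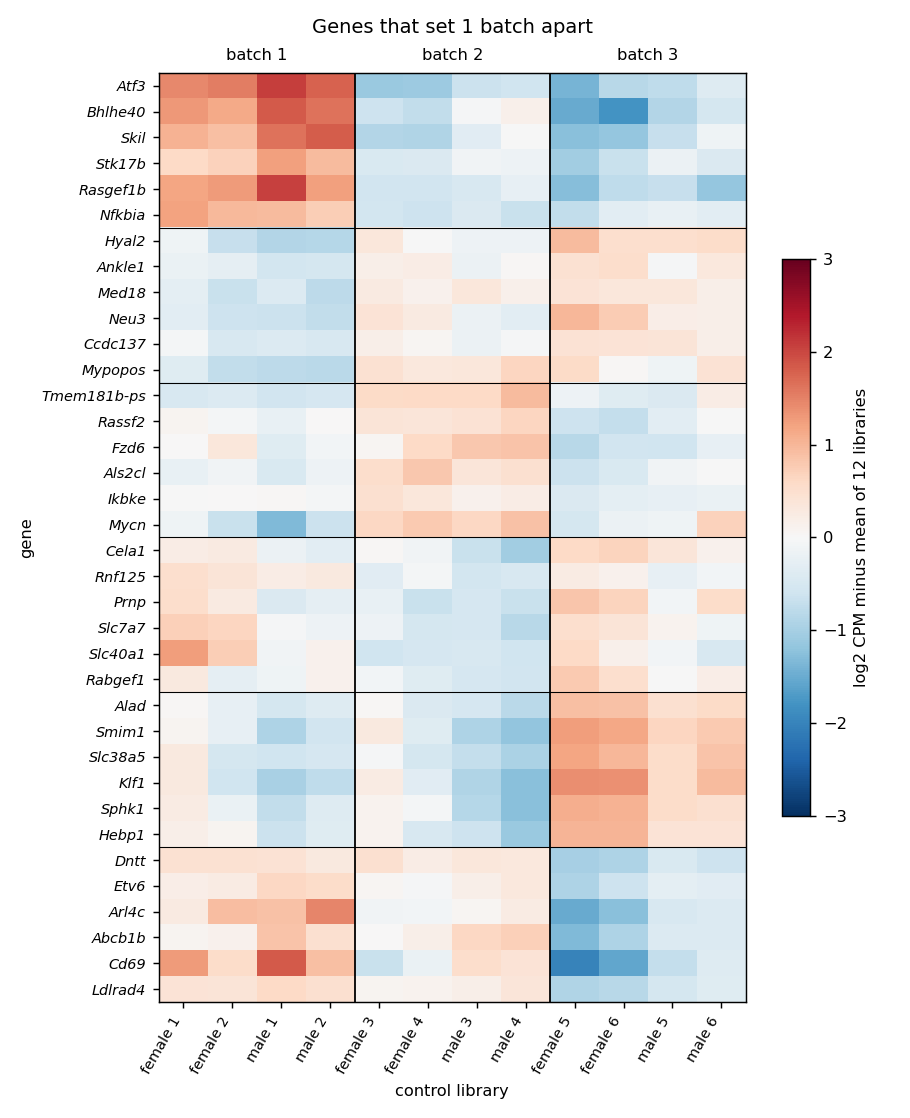
Heat map of 36 genes, the 6 higher and 6 lower genes of smallest p for each batch, with the 12 control libraries as columns by batch, colored by log2 of CPM plus 0.05 minus the mean of the gene over the 12 libraries, with the color scale ending at -3 and 3. Atf3, Bhlhe40, Skil and Nfkbia are highest in the 4 libraries of batch 1, while Klf1 and Alad are highest and Dntt and Etv6 lowest in the 4 libraries of batch 3.

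Markers of macrophages and dendritic cells moved with batch 1. Of 18 such markers tested, 11 were higher in batch 1 and 1 was lower in batch 3, against 2.79% and 6.02% of all genes. Without the pair, 3 of the 12 passed. Their summed level was 971 to 1832 CPM in batch 1, 426 to 708 CPM in batch 2 and 432 to 686 CPM in batch 3, with no marker at 0 in all libraries. C1qb, a complement component made by tissue macrophages, stood at 277, 347, 129 and 159.9 CPM in batch 1, 45.5, 67.5, 91.3 and 57.3 CPM in batch 2, and 90.3, 78.6, 108 and 41.7 CPM in batch 3. Each library of batch 1 was above every other, although the female libraries of batch 1 exceeded its male libraries, and the call was lost without the pair (adjusted p = 0.0129 and 0.138, edgeR). Marco, a scavenger receptor of macrophages, kept its call at 6.77 ± 2.56 CPM against 1.18 ± 0.181 and 1.45 ± 0.613 CPM (adjusted p = 0.000706 and 0.0166 without the pair), and Hmox1, the heme oxygenase of the antioxidant list, lost it at 136 ± 51.8 CPM against 40.1 ± 11.8 and 39.3 ± 13.8 CPM (adjusted p = 0.00664 and 0.105). The B and plasma cell list had 6 of 14 markers higher in batch 1 and 7 lower in batch 3, against the same shares of all genes. Without the pair, 1 of these 13 passed, and it was among those lower in batch 3. Its sums were 336 to 517, 211 to 359 and 119 to 313 CPM in batches 1, 2 and 3. The part of these cells in the batch 1 differences was not tested.

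Genes lower in batch 1 were fewer. Hyal2, a hyaluronidase, had 25.9 ± 6.74 CPM in batch 1 against 39.9 ± 6.99 and 61.4 ± 9.79 CPM (adjusted p = 0.000642, edgeR), and the nuclease gene Ankle1 59.8 ± 7.64 CPM against 81.7 ± 10.2 and 97.6 ± 15.7 CPM. Med18, a subunit of the Mediator complex, had 21.4 ± 3.41 CPM against 36.2 ± 2.52 and 38.6 ± 2.40 CPM. These 3 kept their calls without the pair. Vwf, von Willebrand factor, which marks megakaryocyte-biased stem cells, was lower as well, at 9.90 ± 3.10 CPM against 15.8 ± 4.90 and 20.04 ± 3.87 CPM, and missed the threshold without the pair (adjusted p = 0.0505).

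Batch 3 was set apart by a higher erythroid program. Of 25 megakaryocyte-erythroid genes tested, 15 were higher in batch 3, against 6.06% of all genes, and 9 of the 18 genes of the list that passed did so without the pair. The median member lay 0.84 log2 units higher in batch 3, against -0.03 for all genes tested. The list summed to 11758 to 15636 CPM in batch 3, above all libraries of batch 1 (6526 to 10480 CPM) and batch 2 (5270 to 9091 CPM).

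Klf1, the transcription factor that activates globin, heme and red cell membrane genes, stood at 487, 259, 200.3 and 234 CPM in batch 1, 472, 313, 212 and 165 CPM in batch 2, and 1040.4, 1029, 581 and 767 CPM in batch 3. The lowest library of batch 3 exceeded the highest of the other batches, and within batch 3 the females were above the males. It was 3.05-fold higher in batch 3 (adjusted p = 0.000453, edgeR, 0.0181 without the pair), by 1.56 ± 0.20 log2 (SE) over batch 1 and 1.62 ± 0.20 over batch 2. Gata1, the zinc finger factor that directs erythroid and megakaryocyte commitment, stood at 227, 143, 137 and 145 CPM in batch 1, 233, 147, 133 and 101 CPM in batch 2, and 463, 410.2, 305 and 303 CPM in batch 3. Its 4 libraries of batch 3 were also above all others, 2.38-fold (adjusted p = 0.000537 and 0.0367 without the pair). Car2 stood at 4708, 2909, 3146 and 3028 CPM in batch 1, 3951, 2956, 2939.7 and 2417 CPM in batch 2, and 7033, 7110.5, 5295 and 6169 CPM in batch 3. It was 1.99-fold higher in batch 3 (adjusted p = 0.000950 and 0.0497 without the pair), and Car1, Ermap and the water channel gene Aqp1 were 2.04, 2.36 and 2.31-fold higher.

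Genes of heme synthesis were higher as well. Of 13 tested, 8 were higher in batch 3, against 6.06% of all genes, and 4 of the 8 passed without the pair. The list summed to 2713 to 4002 CPM there against 1963 to 2521 CPM in batch 1 and 1664 to 2281 CPM in batch 2. Alad stood at 439.9, 359.7, 296 and 324 CPM in batch 1, 436, 314, 301 and 244 CPM in batch 2, and 797, 784, 597 and 630.0 CPM in batch 3. Batch 3 lay wholly above the other batches, 2.09-fold (adjusted p = 0.000257, edgeR, 0.0159 without the pair). Slc25a38, the glycine carrier of the pathway, was 2.45-fold higher, and Cpox, a later enzyme, 2.13-fold, the last without a call once the pair was left out (adjusted p = 0.0985). Smim1, the Vel blood group gene, Slc38a5, an amino acid carrier, and Sphk1, a sphingosine kinase, were 2.72, 2.54 and 2.26-fold higher, each with a call without the pair.

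The promoter of Klf1 is shown as that of the erythroid factor that passed in every setting run on the control libraries. It is the plus strand of chr8:84901732-84901981 in GRCm38.p6, from RefSeq, and capitals mark a GATA match, AGATAA or TGATAA on either strand.
Klf1: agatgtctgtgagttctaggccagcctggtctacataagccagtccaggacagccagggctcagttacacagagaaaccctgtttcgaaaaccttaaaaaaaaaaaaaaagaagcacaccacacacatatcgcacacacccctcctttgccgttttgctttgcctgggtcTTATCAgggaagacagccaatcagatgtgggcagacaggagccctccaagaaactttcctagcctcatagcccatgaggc
The match reads TGATAA on the opposite strand, 80 to 75 bases before the start. A GATA match was held by 12.2% of all promoters at hand, by 13.5% of the 881 among genes higher in batch 3 and by 14.6% of the 804 among genes lower there.

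Markers of red cells did not all follow. Of 12 mature erythroid markers tested, 5 were higher in batch 3, Sptb, Hemgn and Rhd among them, against 6.06% of all genes. In the same batch 3 globin genes were lower, against 6.02% of all genes. Sptb was named after its values were seen. Hbb-bs was 3.43-fold lower in batch 3 (adjusted p = 0.0439, edgeR), but the batches overlapped and the call was lost without the pair (adjusted p = 0.377), as were the other 7 of the list. Globin genes have near-identical copies, and reads shared between copies are not counted. The summed level of the list was 4035 to 8828, 1745 to 7185 and 2747 to 4576 CPM in batches 1, 2 and 3.

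Proliferation genes were higher in batch 3 too. Of 28 genes of G2 and mitosis 13 were higher in batch 3, against 6.06% of all genes, and 2 of the 13 passed without the pair. The list summed to 6591 to 8077 CPM there against 5381 to 6318 and 5403 to 6388 CPM in batches 1 and 2. Plk1, the mitotic Polo kinase, stood at 151, 109, 92.6 and 106 CPM in batch 1, 188, 133, 114 and 107 CPM in batch 2, and 359, 267, 206 and 224 CPM in batch 3. The lowest library of batch 3 was above the highest of the others, by 2.11-fold on average (adjusted p = 0.000471, edgeR, 0.0227 without the pair). Of 30 genes of the G1/S transition and replication 8 were higher in batch 3, against 6.06% of all genes. None of the 8 had a call without the pair. Rrm2, the regulated subunit of ribonucleotide reductase, stood at 904, 534, 617 and 564 CPM in batch 1, 762, 548, 615 and 587 CPM in batch 2, and 1627, 1194, 958 and 1426 CPM in batch 3. It was 2.02-fold higher (adjusted p = 0.00223 and 0.0772 without the pair), while the replication genes Mcm6, Mcm3 and Pcna did not pass (adjusted p = 0.411, 0.344 and 0.138).

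Lymphoid genes were lower in batch 3. Of 23 lymphoid-priming genes tested, 12 were lower in batch 3 (6.02% of all genes), 1 was higher there, and 2 each were higher in batches 1 and 2. The median member lay 0.73 log2 units lower in batch 3, and 2 of the 17 that passed did so without the pair. Dntt stood at 351, 355, 347 and 315 CPM in batch 1, 357, 300.1, 328 and 318 CPM in batch 2, and 129, 136, 188 and 167 CPM in batch 3. All 4 libraries of batch 3 were below all others, 2.18-fold (adjusted p = 0.000274, edgeR, 0.0162 without the pair). Flt3 stood at 382, 351, 318 and 389 CPM in batch 1, 406, 436, 364 and 407 CPM in batch 2, and 147, 193, 223 and 282 CPM in batch 3. It was 1.85-fold lower in batch 3 with no overlap, but only with the pair included (adjusted p = 0.00360 and 0.110). Mef2c, a factor of lymphoid priming, Ighm and Ccr7 were lower as well, 1.76, 1.77 and 2.39-fold, each without a call once the pair was left out.

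Genes of stem cell identity that passed were mostly lower in batch 3, chiefly in the female pair. Of 30 genes of stem cell identity tested 10 were lower and 1 higher in batch 3, against 6.02% and 6.06% of all genes. In batch 1, 3 were lower, against 0.863% of all genes, and none of the 14 passed without the pair. The list summed to 2006 and 2034 CPM in the pair, to 2848 and 3262 CPM in the 2 males of batch 3, and to 2918 to 3979 CPM in the other batches. Cd34 stood at 527, 502, 761 and 575 CPM in batch 1, 506, 621, 679 and 763 CPM in batch 2, and 228, 228, 469.5 and 518 CPM in batch 3. Its 2 lowest libraries were the female pair and the males of batch 3 overlapped the other batches (adjusted p = 0.00480 and 0.172 without the pair, edgeR). Mecom was 1.95-fold lower in batch 3 and Angpt1, a ligand of the receptor Tie2, 1.96-fold (adjusted p without the pair 0.0674 and 0.0756). Ly6a was 2.48-fold lower in batch 3 (adjusted p = 0.0419 and 0.321), with overlapping batches. Stem cell transcription factors went both ways: of 19 tested, 6 were lower and 3 higher in batch 3, against 6.02% and 6.06% of all genes. Of these 9, 1 passed without the pair. Their list summed to 2004 and 2424 CPM in the pair and to 1654 and 1948 CPM in the 2 males of batch 3. In batches 1 and 2 it summed to 1874 to 2289 and 1952 to 2182 CPM. Among the lower ones Etv6, a repressor needed by adult stem cells, stood at 120.1, 124, 161 and 153 CPM in batch 1, 109, 101, 118 and 129.6 CPM in batch 2, and 54.7, 67.3, 85.01 and 82.7 CPM in batch 3. Batch 3 lay wholly below, 1.76-fold, and kept its call without the pair (adjusted p = 0.0166). Of 26 chromatin regulators 4 were lower in batch 3 (6.02% of all genes), namely Tet1, Dnmt3b, Satb1 and the demethylase gene Kdm1a, and no other member passed. Those 4 made up 15.4% of the list, close to the 16.4% of all genes called in any direction. Tet1 had 25.4 ± 4.74 CPM in batch 3 against 38.8 ± 6.88 and 43.7 ± 6.22 CPM in batches 1 and 2 and kept its call without the pair (adjusted p = 0.00109 and 0.0494, edgeR), while the other 3 lost theirs.

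Interferon and antigen presentation genes had the same direction. Of 35 type I interferon response genes 17 were lower in batch 3, against 6.02% of all genes, none of the 17 with a call without the pair. The median member lay 0.77 log2 units lower there. Rsad2, the antiviral protein viperin, stood at 28.5, 57.5, 86.05 and 61.9 CPM in batch 1, 16.5, 28.9, 62.3 and 28.8 CPM in batch 2, and 9.36, 12.2, 12.6 and 18.1 CPM in batch 3. Isg15, an interferon-induced ubiquitin-like protein, stood at 16.997, 36.3, 55.3 and 25.4 CPM in batch 1, 11.7, 17.7, 35.5 and 14.9 CPM in batch 2, and 5.38, 7.77, 11.2 and 15.5 CPM in batch 3. Both were highest in male 1 of batch 1, and the 4 low libraries of batch 3 overlapped batch 2. They were 3.20 and 2.55-fold lower in batch 3 (adjusted p = 0.00272 and 0.0121, edgeR, 0.0649 and 0.199 without the pair). Of 30 MHC and interferon gamma genes 8 were lower in batch 3 and 5 higher in batch 1, against 6.02% and 2.79% of all genes. H2-K1, a classical class I heavy chain, had 1521 ± 340.3, 1089 ± 104 and 720.3 ± 101 CPM in batches 1, 2 and 3 and kept its call without the pair (adjusted p = 0.0429). Cd74, the invariant chain of class II, was 1.98-fold higher in batch 1.

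The promoter of Isg15 is shown as a textbook interferon target whose level followed that order. It is the minus strand of chr4:156200819-156201068 in GRCm38.p6, from RefSeq, with matches to the same response element in capitals.
Isg15: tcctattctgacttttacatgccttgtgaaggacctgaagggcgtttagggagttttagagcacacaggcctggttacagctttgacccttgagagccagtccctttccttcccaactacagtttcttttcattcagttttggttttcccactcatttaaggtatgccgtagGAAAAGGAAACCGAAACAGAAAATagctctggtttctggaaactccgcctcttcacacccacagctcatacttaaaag
The 2 matches abut and begin 78 and 66 bases before the start. The motif was found in 3.98% of promoters of genes lower in batch 3 and in 1.14% of those higher there, beside the 1.65% over all promoters at hand.

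Metabolic genes were split. Of 24 glycolytic genes 8 were lower and 2 higher in batch 3, against 6.02% and 6.06% of all genes. None had a call without the pair. Pkm stood at 764, 808, 1075 and 889 CPM in batch 1, 601, 853, 1031 and 984 CPM in batch 2, and 298, 312, 608 and 701 CPM in batch 3. The 2 female libraries of batch 3 lay below all others, while the males of that batch overlapped the rest (adjusted p = 0.00302, edgeR, 0.140 without the pair). The hexokinase genes went in opposite directions: Hk1 had 635 ± 146 CPM in batch 3 against 316 ± 84.02 and 365 ± 90.3 CPM, and Hk2 27.05 ± 12.7 CPM against 58.3 ± 7.07 and 44.1 ± 7.29 CPM. Genes of the mitochondrion that passed were mostly higher in batch 3, where 6.06% of all genes were higher. In the TCA cycle 8 of 26 were higher and 1 was lower. In nuclear oxidative phosphorylation 10 of 44 were higher, and in fatty acid oxidation 8 of 22. Those 10 made up 22.7% of the oxidative phosphorylation list, against 16.4% of all genes called in any direction. None of these genes had a call without the pair. Mdh2, mitochondrial malate dehydrogenase, had 1342 ± 71.1 CPM in batch 3 against 1021 ± 74.9 and 944 ± 98.4 CPM, and Cpt2, a carnitine acyltransferase, 62.8 ± 10.9 CPM against 36.6 ± 5.88 and 39.1 ± 7.56 CPM. Asns, asparagine synthetase, was 2.34-fold higher in batch 3 (adjusted p = 0.000616 and 0.0413 without the pair). No messenger of the 11 tested of the mitochondrial genome and none of the 77 ribosomal protein genes passed, and 1 of 25 cholesterol genes did, Hmgcs1, lower in batch 3.

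Markers of mature lymphoid and myeloid cells were also lower in batch 3. Of 14 neutrophil markers tested 5 were lower there, against 6.02% of all genes. The sums were 96.2 to 237, 103 to 150 and 43.5 to 87.0 CPM in batches 1, 2 and 3, and 1 of the 16 markers listed was at 0 in all libraries. Of 18 T, NK and innate lymphoid markers 5 were lower in batch 3 and 3 higher in batch 1, against 6.02% and 2.79% of all genes. Their sums were 113 to 167, 95.0 to 124 and 45.4 to 88.4 CPM. None of these calls stood without the pair. Stromal, bone and endothelial markers gave 3 calls of 18, or 16.7%, close to the 16.4% of all genes. Their sums overlapped, at 495 to 1277, 680 to 946 and 602 to 1603 CPM. Their part in the batch 3 differences was not tested.

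Batch 2 differed least. Tmem181b-ps, an expressed pseudogene, stood at 15.6, 16.5, 14.6 and 15.5 CPM in batch 1, 32.4, 33.3, 33.1 and 42.1 CPM in batch 2, and 19.7, 16.9, 16.3 and 25.6 CPM in batch 3. All 4 libraries of batch 2 exceeded all others, 2.02-fold (adjusted p = 0.000917, edgeR, 0.0134 without the pair), and reads that match a related gene equally well are not counted. Mycn, a Myc family factor of stem cells, stood at 37.6, 25.9, 16.3 and 26.3 CPM in batch 1, 63.6, 70.3, 62.99 and 75.8 CPM in batch 2, and 28.2, 36.4, 37.4 and 65.8 CPM in batch 3. It was 2.13-fold higher in batch 2 (adjusted p = 0.0132 and 0.0353 without the pair), with 1 male library of batch 3 inside the range of batch 2. Slc40a1, the iron exporter ferroportin, was 1.76-fold lower in batch 2, at 132 ± 5.10 CPM against 290.1 ± 125 and 205 ± 64.6 CPM, and lost its call without the pair (adjusted p = 0.0639). The largest range between batch means belonged to Podxl, a sialomucin of stem and endothelial cells, which stood at 5.53, 2.06, 1.30 and 6.02 CPM in batch 1, 31.03, 4.10, 3.22 and 2.85 CPM in batch 2, and 94.4, 65.5, 25.6 and 4.78 CPM in batch 3. Single libraries carried it, 2 females and 1 male in batch 3 and 1 female in batch 2, and it did not pass without the pair (adjusted p = 0.0484 and 0.421).

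**Figure D5:**
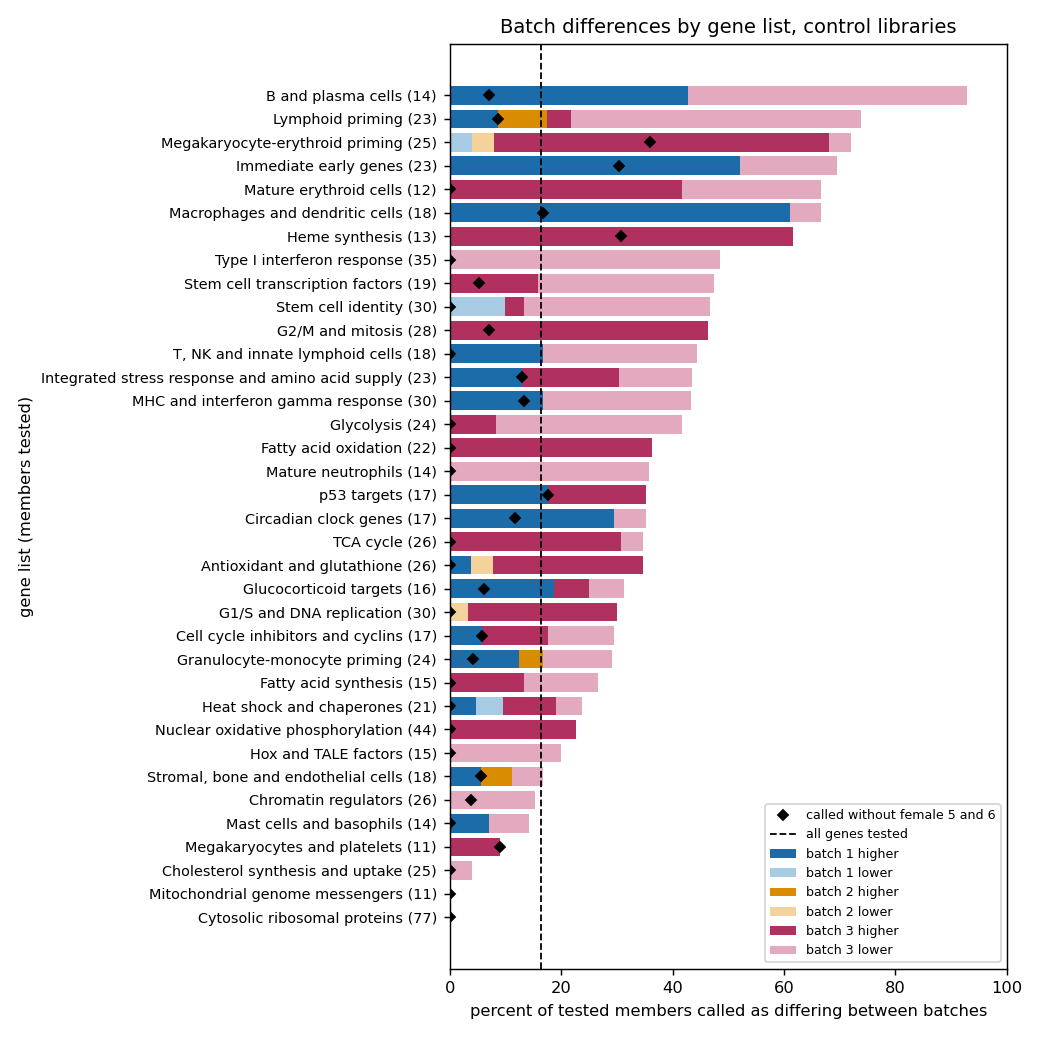
Percent of the tested genes of 36 lists, with the number tested in parentheses, that were higher or lower in batch 1, 2 or 3 at an adjusted p under 0.05 in the 12 control libraries. The dashed line marks 16.4%, the share of all genes tested, and diamonds the share called without females 5 and 6. The diamonds lie below the full bar in every list with calls except megakaryocytes and platelets.

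The Western-diet libraries carry the same batch numbers, share no library with the controls, and gave 424 batch differences (2.20% of 19303 genes tested). Of these, 287 were called in the controls with the same direction, 67.7% of the Western-diet calls and 9.13% of the control calls. The overlap lay mainly in batch 1: of the 529 genes higher in batch 1 that were tested in both, 175 (33.1%) were also higher there in the Western-diet libraries. For genes higher in batch 3 this held for 22 of 1150 (1.91%), and for genes lower in batch 3 for 75 of 1146 (6.54%). Called or not, the Western-diet difference had the same sign for 932 (81.04%) and 923 (80.5%) of these, against 65.0% and 65.1% of all genes tested whose batch 3 mean lay farthest from the other batches, above or below them. For genes higher in batch 1 the shares were 97.2% of those called and 66.9% of all. Atf3 was called in both, and so were Bhlhe40, Skil, Nfkbia and Nr4a1, and 14 of the 23 immediate early genes passed there. Klf1, Gata1 and Flt3 were not called in the Western-diet libraries. Whether the batch effect differs between diets was not tested.

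Between the sexes 100 genes differed (0.523% of genes tested), 33 higher in males (0.173%) and 67 higher in females (0.35%). Of these, 5 lie on the Y chromosome, 6 on the X chromosome and 89 elsewhere or unplaced, and 90 were also batch differences. The genes that passed in all 23 settings were Kdm5d, Uty, Ddx3y and Eif2s3y on the Y chromosome, Xist, the RNA that silences an X chromosome, and the unnamed gene model Gm4017. Xist stood at 231 to 425 CPM in females and 0.219 to 1.11 CPM in males, and Ddx3y at 119 to 177 CPM in males, so each library matched its labelled sex. Of the autosomal genes Stard10, a lipid transfer gene of erythroid cells, stood at 53.4, 49.8, 24.7 and 36.8 CPM in batch 1, 55.6, 49.9, 27.2 and 25.4 CPM in batch 2, and 105, 98.2, 54.9 and 64.4 CPM in batch 3. Females 5 and 6 were highest, and over the 6 libraries of a sex the means were 68.7 ± 25.8 CPM in females and 38.9 ± 16.9 CPM in males (adjusted p = 0.00448, edgeR). Skil was higher in males, 125 ± 97.2 against 73.9 ± 58.01 CPM (adjusted p = 0.00693), as was Bhlhe40, 52.5 ± 41.6 against 34.6 ± 30.97 CPM (adjusted p = 0.0146). Without the pair 7 genes differed between the sexes.

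No gene passed the edgeR test of whether the batch differences depend on sex, and 1265 (6.61%) had an unadjusted p under 0.05. DESeq2 called 70 genes in that comparison. With 2 libraries of a sex in each batch, the female pair of batch 3 and the batch cannot be told apart among female libraries: the batch count was 2246 in females alone and 10 in males alone.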

How the data were processed

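The authors deposited raw counts per gene and library, whole numbers from HTSeq. The submitters' processing notes also name FastQC, cutadapt, STAR, DESeq2 and the build GRCm39. Which annotation and strand option the counting used, and any tool version, is not stated in the labels or files. Lines for reads assigned to no gene (31.04 to 36.8% of a library's reads) were left out.

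Symbols, gene types and exon lengths came from GENCODE M21 (GRCm38), which named 52133 of 55414 IDs, and promoters from RefSeq. Genes were filtered with filterByExpr by batch, which kept 19130, scaled by TMM and tested with edgeR 4.0.16 (R 4.3.3) by the robust quasi-likelihood F test on the 12 control libraries. Batch and sex entered as terms, or with their interaction, and p-values were adjusted by Benjamini-Hochberg over all genes tested (threshold 0.05). Batch means and folds used log2 CPM with a prior count of 1. The fit was first tested on simulated counts with known changes in 50 genes per fold. For batch it recovered 6 of 50 at 1.5-fold (12%), 27 at 2-fold (54%) and 33 at 3-fold (66%). A gene that did not pass may therefore still differ.

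The members and the 37 gene lists were chosen with earlier results of these data known. Genes were named by rule: the markers, the 4 highest per kilobase of each list, the 15 most abundant, up to 4 called genes of each list and the 6 of smallest p for each batch direction (mean of at least 5 CPM), the 10 of largest batch range, the 10 of lowest variation, and the leading sex genes. Some genes that the rule takes are not reported here. Normalization, filter, DESeq2 1.42.0, limma 3.58.1 (voom), library subsets, left-out libraries and a replicate block were tried. Same-numbered libraries of the 2 sexes share a batch. No 2 libraries were copies of each other, and the lowest correlation between libraries was 0.938.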

Additional observations from a re-analysis of the deposited data

Results flagged for a closer look

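Of 45 groups of libraries examined for a single library far from the others, 5 held one, and chance alone gives about 1 in 20 groups. Mpo stood at 5704 CPM in male 1 of batch 1, against 2176 to 2666 CPM in the other 3 libraries of that batch and 2206 to 3024 CPM in the other males. Ly6a was also highest in that library, at 39.6 CPM against 8.10 to 17.9 CPM in the other males. Within batch 2, Ly6a was highest in male 3, at 17.9 CPM against 9.29 to 10.2 CPM. The share of counts on mitochondrial genes was lowest in female 3, at 0.868% against 1.11 to 1.12% in the other libraries of batch 2. Without male 1 the batch count was 4083 genes.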

How the results depend on the processing

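The number of genes with a batch difference was 3145 and stayed within 1.5 times of it under RLE scaling, a filter of 1 CPM in 4 libraries, DESeq2, voom, female libraries alone and all 24 libraries in the fit. It moved to 4743 with no filter, 1834 with no sex term, 255 without both female libraries of batch 3, 10 in male libraries alone and 424 in the Western-diet libraries. Leaving out 1 library at a time gave 1595 to 4083, the lowest without female 6 and then female 5 (1644). Of 160 named batch genes, 160 kept their call with RLE scaling and with DESeq2, 127 in females alone, 123 with no sex term, 54 without the pair, 5 in males alone and 40 in the Western-diet libraries. In the Western-diet libraries the odd batch's difference changed sign for Cbfb (0.0878 log2), Kdm1a (0.12), Fkbp5 (0.0731), Ccnd2 (0.0190), Pkm (0.0365), Hk1 (-0.0592), Pcx (-0.38), Cyc1 (-0.34), Elovl5 (0.11), Fads2 (-0.0140), Trim30a (0.18), Eomes (0.0147) and Gp9 (-0.0443). The count of sex differences, 100, moved to 1865 with no filter, 939 with DESeq2, 7 without the pair, 7 with no batch term, 6 without batch 2 and 7 without batch 3, and leaving out 1 library gave 9 to 416. Deviations of same-numbered females and males from the means of their sex correlated by 0.0395 to 0.325, and 6 of 12 libraries correlated best with their own number, so the numbers were not taken to pair the libraries. With the replicate block the count was 11 genes, 10 of them shared, and the block could not be fitted for batch, which is nested in the replicate numbers. The interaction count of 0 moved to 600 with no filter and 70 with DESeq2, and leaving out 1 library gave 0 to 10. The cause of these changes was not tested. Lengths from the longest transcript moved 79 of 170 per-kilobase levels by more than 1 SD. Whether depth or the number of libraries limits the smallest difference that can be called was not tested.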
